A study of Homo sapiens with 6 samples.

Results

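The respiratory chain of the mitochondrial inner membrane passes electrons from NADH and succinate to oxygen and pumps protons as it does so, and ATP synthase uses the proton gradient to make ATP. Its subunits come from 2 genomes. Most are encoded in the nucleus, made in the cytosol and imported, while a small set, marked MT- here, is transcribed from the circular mitochondrial DNA as long precursors that are cut into single messengers. Complex I (NADH dehydrogenase, names in NDUF and MT-ND) and complex II (succinate dehydrogenase, SDH) feed electrons to complex III (cytochrome bc1, UQCR and MT-CYB), and complex IV (cytochrome c oxidase, COX and MT-CO) passes them to oxygen. YY1, a zinc-finger transcription factor, is known as a regulator of nuclear genes of this chain, and YY2 is its paralog with closely related zinc fingers.

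The rows were chosen by gene name from the deposited expression table, namely NDUF followed by A, B, C, S or V and a digit, names starting UQCR, SDHA to SDHD, names starting COX4I, COX5, COX6, COX7 or COX8, and names starting MT-ND, MT-CO, MT-CYB or MT-ATP. Of 50868 rows, 85 were kept and 100 pseudogene rows with matching names were dropped. The 85 rows held all 13 MT- genes and 72 nuclear rows, of which 68 were subunit genes, 3 were antisense genes and 1 was a readthrough gene. The rule left out CYC1, CYCS and NDUFAB1, and it placed NDUFA4 with complex I by its name, although its protein is known as a subunit of complex IV.

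RNA-Seq was performed on HCT116, a line from a human colorectal carcinoma. The cells had received either a plasmid that expresses YY2 (pcYY2) or the empty plasmid (pcCon), and each group has 3 samples. Both groups carry a plasmid. The general methods for overexpression name collection a day after transfection and no selection, and the RNA-Seq methods do not repeat this, so untransfected cells may be in both groups. In such bulk samples, a change in some of the cells and a smaller change in all of them cannot be told apart. Nothing states that the 3 samples of a group were separate cultures, so the p-values measure only the spread between these samples. The samples held 15158360 to 29572882 counts, and the floor of 3 counts corresponded to 0.101 to 0.198 CPM (counts scaled to the library total). YY2 itself, the check of the transfection, was at 2.22, 2.52 and 1.73 FPKM (counts scaled to gene length and library total) in pcCon and at 11.6, 11.1 and 11.0 FPKM in pcYY2. Its log2 fold change was 2.39 ± 0.14 (SE, n = 3 per group) with an adjusted p of 0.00107 by edgeR's quasi-likelihood test, and reads from the plasmid and from the chromosomal gene cannot be told apart. Of 8 markers of colon epithelium, 6 were detected, VIL1 had at most 2 counts and CDX1 was at 0, and their summed level was 2082 to 2167 CPM in pcCon and 2748 to 3171 CPM in pcYY2, with KRT8 and KRT19 called higher (KRT8 not without pcCon sample 2, adjusted p by edgeR 0.0503). Of 5 fibroblast markers COL1A2, DCN and LUM were at 0 and COL3A1 had 0 to 6 counts. Their summed level was thus nearly all COL1A1 (374 to 1020 counts), at 24.9 to 28.3 CPM in pcCon and 28.0 to 34.7 CPM in pcYY2. The 5 leukocyte markers summed to 2.14 to 3.03 CPM in pcCon and 3.46 to 6.26 CPM in pcYY2. The 3 endothelial ones summed to 0.330 to 1.15 CPM in pcCon and 0.489 to 1.62 CPM in pcYY2. Both sums were highest in pcYY2 sample 2, where PTPRC had 69 counts, beside at most 15 in any other sample. The part of these differences in the results below was not tested.

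Of the subunit messengers of both genomes, 2 nuclear ones were called. Fold changes are log2 values of pcYY2 against pcCon, fitted to the counts of the 12015 genes whose FPKM averaged 1 or more, and a gene is called higher or lower at an adjusted p of 0.05 or less. Of the 61 nuclear subunit genes that passed this filter, 0 were called higher and 2, UQCRC2 and NDUFA7, were called lower, against a background of 4.52% of all tested genes called higher and 4.85% called lower. Of the 13 MT- genes, all of which were tested, 0 were called in either direction. At an unadjusted p under 0.05, edgeR counted 6 nuclear subunits higher and 4 lower (background 14.4% and 14.5%), and 1 MT- gene higher and 3 lower. The FPKM of the groups did not overlap for 10 nuclear subunits with higher and 7 with lower values in pcYY2 (background 15.9% and 19.9%), and for 1 MT- gene with higher and 3 with lower values. The median log2 fold change was 0.02 over the nuclear subunits and 0.05 over the MT- genes, beside 0.002 over all tested genes.

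The subunits' values lay close to 0. The median absolute log2 fold change was 0.09 for the nuclear subunits and 0.10 for the MT- genes, beside 0.15 for all tested genes. Only 6 of the 61 nuclear subunits (9.84%) and 0 of the 13 MT- genes differed by more than 0.25 on the log2 scale, while 27.7% of all tested genes did. These values include the error of each gene. The MT- genes had a median of 49710 counts per sample and a median SE of 0.04 on the log2 scale, the nuclear subunits a median of 1100 counts and a median SE of 0.08, and all tested genes a median of 718 counts and a median SE of 0.09. The median coefficient of variation of FPKM between the samples of a group was 2.78% in pcCon and 4.89% in pcYY2 for the MT- genes, and 6.32% and 7.58% for the nuclear subunits.

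**Figure D1:**
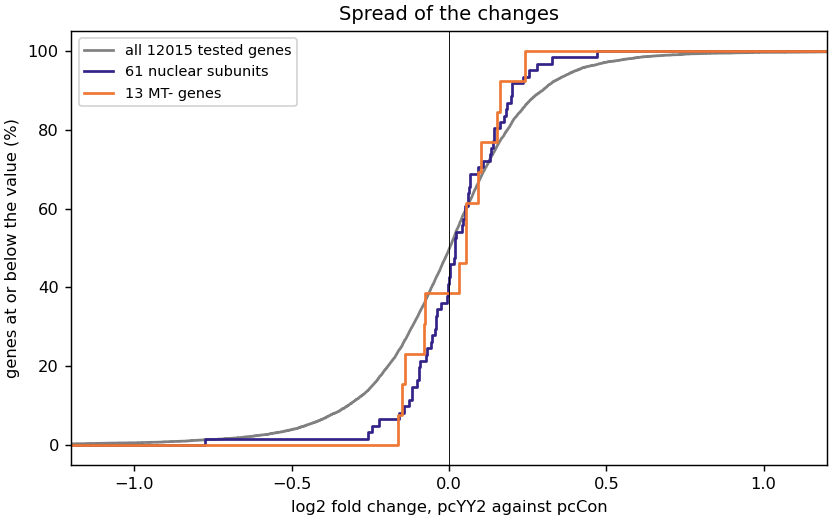
Cumulative share of genes (y axis, percent) at or below each log2 fold change of pcYY2 against pcCon (x axis) for all 12015 tested genes, the 61 nuclear subunits and the 13 MT- genes. The curves of both subunit sets rise more steeply around 0 than the curve of all genes, with 1 nuclear subunit, NDUFA7, far to the left at -0.77.

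The share of the library taken by each genome's messengers overlapped between the groups. The 13 MT- genes held 5.48%, 5.24% and 5.32% of the counts in the pcCon samples and 5.12%, 5.39% and 4.999% in the pcYY2 samples. The nuclear subunits together held 0.411%, 0.434% and 0.433% in pcCon and 0.411%, 0.437% and 0.434% in pcYY2. The 95% Wilson intervals on these shares were at most 0.0113 percentage points to each side and cover counting error only. An average of 12.6 ± 0.67 MT- counts (SD, n = 3) was read for each nuclear subunit count in pcCon and 12.1 ± 0.506 in pcYY2.

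The letters that YY1 and YY2 are known to bind were common next to the starts of these genes, so they are shown first. The YY1/YY2-type motif was written as GCCATNTT and searched on both strands, where it reads AANATGGC on the other strand, in windows from 250 bases before to 50 after each annotated start (RefSeq, GRCh38.p14). The table of windows held 55 of the 68 nuclear subunit genes in 64 windows. A match was found in 23 of the 64 windows (35.9%), from 22 genes, compared with 6.58% of all 35116 windows and 10.2% of the 11730 windows of tested genes. The matches lay close to the start. Of the 23 matches, 17 (73.9%) began after the annotated start, and the median position of all 23 was base 15 after it. Among the 1300 matches of tested genes, 53.2% began after the start, with a median at base 5. On the strand of the gene, 15 of the 23 (65.2%) read AANATGGC, where the letters include an ATG, beside 65.8% for tested genes. NDUFS1 has 2 windows that hold the same genomic site, so the 23 windows hold 22 sites.

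The sites of 10 subunits are given below, with the match in capitals and the sequence 5′ to 3′ on the strand of the gene. NDUFA7 is shown because it was called, and COX8A because it had the highest FPKM of the nuclear subunits. The others are shown because they encode iron-sulfur, catalytic or core parts of complexes I to III.
NDUFA7, chr19:8321344-8321371, minus strand: tcgcggacggAAGATGGCgtccgccacc
NDUFS1, chr2:206159411-206159438, minus strand: agccgaggccGCCATATTgaataagcga
NDUFS3, chr11:47579079-47579106, plus strand: gcatctgagtAACATGGCggcggcggcg
NDUFS7, chr19:1383914-1383941, plus strand: ggccgaggccAAGATGGCggtgctgtca
SDHB, chr1:17054005-17054032, minus strand: gtcaggagccAAGATGGCggcggtggtc
UQCRC1, chr3:48609606-48609633, minus strand: ctgcagctggAAGATGGCggcgtccgtg
UQCRFS1, chr19:29213104-29213131, minus strand: agcggctgtcGCCATGTTgtcggtagca
NDUFS8, chr11:68030491-68030518, plus strand: tccccaaaccAACATGGCggccccctac
NDUFV2, chr18:9102731-9102748, plus strand: agtgtggcccGCCATGTT
COX8A, chr11:63974607-63974634, plus strand: ggccagcgcaGCCATTTTggcttcctga

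Genes with and without a match had the same median. The 22 subunit genes with a match in a window had a median log2 fold change of 0.02, with 13 positive and 9 negative values. The 29 tested subunit genes whose windows held no match also had a median of 0.02, with 17 positive and 12 negative values. Of the sites printed above, NDUFA7 belonged to a gene called lower (-0.77), and the other 9 belonged to genes that were not called, with log2 fold changes from -0.09 (SDHB) to 0.23 (NDUFS3). UQCRC2, the other gene called lower, had no match in its window. Motifs of other known regulators were searched in the same windows. The NRF1-type motif GCATGCGC was in 10 windows (15.6%) beside 5.01% of the windows of tested genes, and the ETS-type motif CCGGAAG in 15 (23.4%) beside 18.1%. A match is a run of letters and not a measured binding site, and no binding was measured in these samples.

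**Figure D2:**
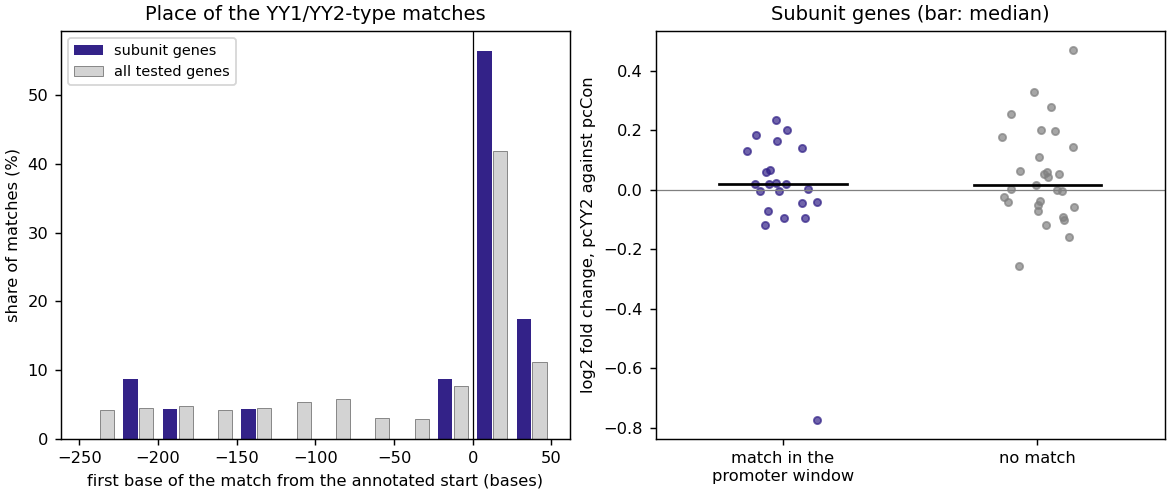
Left, share of YY1/YY2-type matches (y axis, percent) by the place of their first base relative to the annotated start (x axis, bases, in bins of 25) for subunit genes and for all tested genes. Right, log2 fold change of each subunit gene with or without a match, where the bar marks the median, 0.02 in both groups, and the lowest point among genes with a match is NDUFA7.

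In complex I, most of the nuclear subunits had slightly positive values and 1 was called. Of 37 tested genes, 26 were positive and 11 negative, with a median log2 fold change of 0.06. The 7 nuclear core subunits, which carry the flavin and the iron-sulfur clusters or line the quinone site, were all positive, between 0.002 (NDUFS1) and 0.33 (NDUFV1), and 0 of them were called by edgeR, with 2 at an unadjusted p under 0.05. The sign was not firm for those near 0, since NDUFS1 changed sign in 7 of 18 alternative settings (-0.02 to 0.03) and NDUFS8 in 2 (-0.03 to 0.07). NDUFV1, the flavoprotein that binds NADH, was at 4.28, 5.88 and 5.84 FPKM in pcCon and at 6.39, 7.34 and 6.12 FPKM in pcYY2, with pcCon sample 1 low. Its log2 fold change was 0.33 ± 0.14 (SE, adjusted p by edgeR 0.170). NDUFS3, a core subunit near the quinone site, was at 4.92, 5.01 and 5.65 FPKM in pcCon and 5.66, 6.66 and 5.80 FPKM in pcYY2 (log2 fold change 0.23 ± 0.09, adjusted p by edgeR 0.153). In NDUFS3 the highest pcCon sample lay just below the lowest pcYY2 sample. The row of PTPMT1 overlaps NDUFS3 on the same strand, with a mean of 706 counts beside 811 for NDUFS3, so reads may be divided between them. NDUFS7 (0.14 ± 0.08) and NDUFS8 (0.02 ± 0.08), which lie along the path of the electrons to the quinone, did not pass the test either.

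Among the accessory subunits of complex I, 3 showed the smallest p-values. NDUFA7, an accessory subunit of the matrix arm (chr19:8308768-8321396, minus strand, GRCh38), had 332, 369 and 266 counts in pcCon and 216, 259 and 181 counts in pcYY2. Scaled to the library these were 18.2, 20.2 and 17.5 CPM and then 14.1, 8.76 and 9.84 CPM, so all pcYY2 samples lay below all pcCon samples and pcYY2 sample 1 lay nearest to them. The log2 fold change of NDUFA7 was -0.77 ± 0.18 (SE, adjusted p by edgeR 0.0441). With 1 sample left out at a time it stayed between -0.99 and -0.64, but it was called only without pcYY2 sample 1 and missed the threshold without any of the other 5 samples (adjusted p by edgeR 0.0971 to 0.128). NDUFA8, which is held in the intermembrane space, was at 49.8, 54.6 and 48.7 FPKM in pcCon and at 60.5, 60.1 and 60.3 FPKM in pcYY2. The pcYY2 samples were close together and all above pcCon, with a log2 fold change of 0.25 ± 0.06 (SE) that fell just outside the threshold (adjusted p by edgeR 0.0524). NDUFA12, an accessory subunit of the matrix arm, was at 4.53, 4.68 and 6.24 FPKM in pcCon and at 6.76, 6.73 and 7.67 FPKM in pcYY2, with pcCon sample 3 close to pcYY2. Its log2 fold change of 0.47 ± 0.14 (SE) was the largest positive value among the 61 subunits and was not called (adjusted p by edgeR 0.0786). It was called without pcCon sample 3 (0.63, adjusted p by edgeR 0.0428) and by DESeq2 with all samples (adjusted p 0.0336).

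NDUFA7 shares bases with a gene that spans nearly the same stretch, and the 2 rows have to be read together. The row CTD-2550O8.5 covers chr19:8308283-8321379 on the same strand and had 52, 64 and 93 counts in pcCon and 35, 206 and 127 counts in pcYY2. Its own log2 fold change was 0.42 ± 0.46 and was not called. The counts of both rows added together came to 21.1, 23.7 and 23.7 CPM in pcCon and to 16.4, 15.7 and 16.8 CPM in pcYY2. In pcYY2 the sum was more even between samples than either row, the groups did not overlap, and its log2 fold change was -0.47 ± 0.08 (SE, adjusted p by edgeR 0.0224). Leaving out pcCon sample 2 or 3, or pcYY2 sample 2 or 3, took the sum's adjusted p above the threshold (-0.49 to -0.45, adjusted p by edgeR 0.0643 to 0.0831), while the call held without pcCon sample 1 or pcYY2 sample 1. The sum of these 2 rows was thus lower by less than the NDUFA7 row alone. The row of ELAVL1, with a mean of 3248 counts, also overlaps NDUFA7 on the same strand and was not part of the sum. How the counting divided reads among overlapping rows is not given in the sources used here.

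NDUFC2, a small membrane subunit of complex I, gave the opposite case. Its row (chr11:78068304-78080219, minus strand) was at 67.2, 70.6 and 64.1 CPM in pcCon and at 54.5, 52.8 and 61.7 CPM in pcYY2, with a log2 fold change of -0.24 ± 0.07 (SE, adjusted p by edgeR 0.0842). The readthrough row NDUFC2-KCTD14, which joins it to the next gene, had 44, 49 and 21 counts in pcCon and 292, 140 and 68 counts in pcYY2. All pcYY2 samples were above all pcCon samples, but pcYY2 sample 1 held more counts than the other two together, and the row was not called at a log2 fold change of 2.05 ± 0.68 (adjusted p by edgeR 0.101). Without pcYY2 sample 1, NDUFC2-KCTD14 was at 0.98, its lowest value in 18 alternative settings (up to 2.42), and 1 of these, DESeq2, called it (adjusted p 0.00234). Added together, the 2 rows were at 69.6, 73.3 and 65.5 CPM in pcCon and at 73.5, 57.5 and 65.4 CPM in pcYY2, and the groups overlapped. The sum had a log2 fold change of -0.07 ± 0.09 (SE, adjusted p by edgeR 0.644), and of -0.16 ± 0.08 without pcYY2 sample 1 (adjusted p by edgeR 0.257). Summing therefore left a called difference at NDUFA7 and a difference within the error at NDUFC2.

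**Figure D3:**
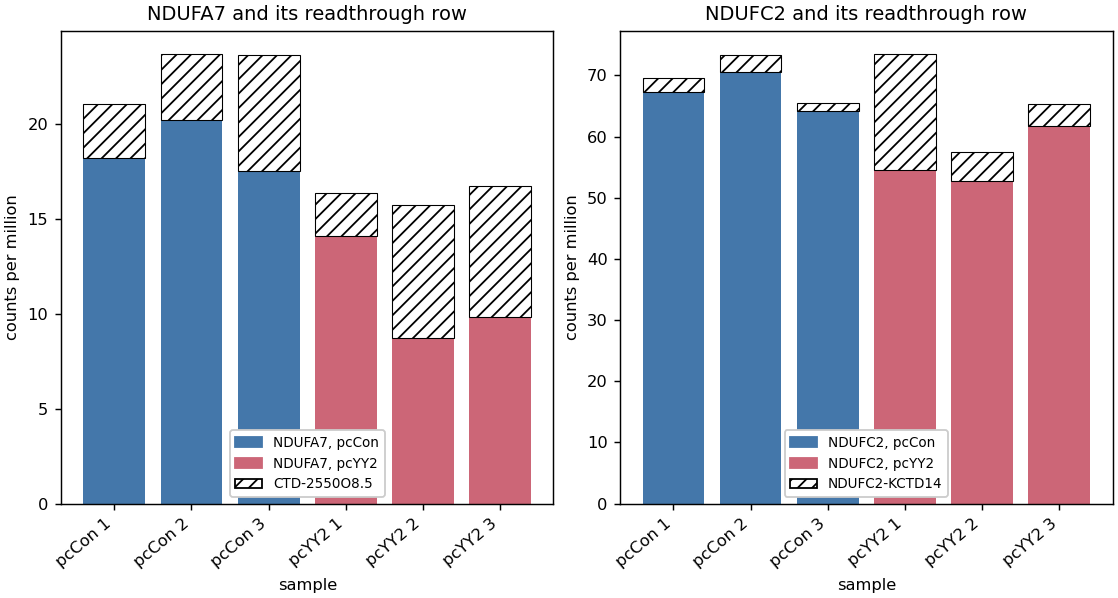
Counts scaled to the library total (CPM, y axis, from 0) in each sample for NDUFA7 with CTD-2550O8.5 and for NDUFC2 with NDUFC2-KCTD14, with the overlapping row hatched on top of the subunit row. For NDUFA7 the stacks are 21.1 to 23.7 CPM in pcCon and 15.7 to 16.8 CPM in pcYY2, while for NDUFC2 they overlap between the groups.

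The remaining subunits of complex I were not called. NDUFA4 had the next smallest p among those with lower values, at 13.3, 15.3 and 14.96 FPKM in pcCon and 12.1, 13.4 and 11.4 FPKM in pcYY2, and these overlapped (log2 fold change -0.22 ± 0.09, adjusted p by edgeR 0.144). Its paralog NDUFA4L2, known to be induced by hypoxia, was barely expressed, with 29, 17 and 25 counts in pcCon and 16, 16 and 11 counts in pcYY2, below the filter on FPKM. Fitted without that filter, NDUFA4L2 had a log2 fold change of -0.94 ± 0.38 and was not called (adjusted p by edgeR 0.245). NDUFS5, an intermembrane space subunit with the highest FPKM of complex I, was at 242 to 251 FPKM in pcCon and 255 to 263 FPKM in pcYY2. The 3 antisense rows matched by name, NDUFA6-AS1, NDUFB2-AS1 and NDUFV2-AS1, had 2 to 70 counts in a sample and did not pass the filter.

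In complex II, which has 4 subunits, all nuclear, 0 were called. SDHC, a membrane anchor of the complex, was at 7.89, 8.31 and 7.39 FPKM in pcCon and at 6.94, 7.33 and 6.86 FPKM in pcYY2, with a log2 fold change of -0.14 ± 0.06 (SE, adjusted p by edgeR 0.175). SDHB, the iron-sulfur subunit, was at 31.0, 30.1 and 29.1 FPKM in pcCon and at 27.5, 28.8 and 27.3 FPKM in pcYY2. In both genes every pcYY2 sample lay below every pcCon sample by a small margin. SDHB had a log2 fold change of -0.09 ± 0.05 (SE, adjusted p by edgeR 0.283). SDHA, the flavoprotein that oxidizes succinate, was at 0.04 ± 0.07, and SDHD, the other anchor, at -0.10 ± 0.20 with wide overlap.

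Complex III held the call with the smallest p of all subunits. UQCRC2, a core protein of the matrix side of the complex (chr16:21952660-21983660, plus strand), was at 22.4, 22.7 and 22.8 FPKM in pcCon and at 18.6, 18.6 and 19.1 FPKM in pcYY2. The means were 22.7 ± 0.239 FPKM in pcCon and 18.8 ± 0.311 FPKM in pcYY2 (SD, n = 3), so the gap was far wider than the spread within a group. UQCRC2 had a log2 fold change of -0.26 ± 0.04 (SE, adjusted p by edgeR 0.0187), which is 0.837 times the level in pcCon, and it ranked 354 among the 12015 genes by p. Leaving out any pcCon sample or pcYY2 sample 3 kept the value (-0.27 to -0.25) but took it above the threshold (adjusted p by edgeR 0.0555 to 0.0771). Its partner core protein UQCRC1, at 36.3, 36.7 and 34.2 FPKM in pcCon and 32.2, 37.7 and 35.8 FPKM in pcYY2, had a log2 fold change of -0.01 ± 0.07. The Rieske iron-sulfur protein UQCRFS1 was at 0.02 ± 0.06, and the small subunit UQCRB at 0.14 ± 0.07. UQCRH, the hinge protein, and its retrocopy UQCRHL are nearly identical, so reads may be divided between them. Their summed counts had a log2 fold change of -0.10 ± 0.07 (SE, adjusted p by edgeR 0.394).

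In complex IV, 11 nuclear subunits passed the filter, 0 were called and the median log2 fold change was 0.000. COX5A and COX5B, subunits shared by all tissues, were at 0.00 ± 0.07 and 0.00 ± 0.08, and COX4I1, the main regulatory subunit, at -0.05 ± 0.07. COX7C had the smallest p, at 16.4, 17.8 and 20.5 FPKM in pcCon and 22.3, 19.0 and 24.5 FPKM in pcYY2, and these overlapped (log2 fold change 0.28 ± 0.12, adjusted p by edgeR 0.169). COX6C (0.13 ± 0.09) and COX7A2L (-0.12 ± 0.09), a protein that links complexes III and IV, came next. The isoforms known from other tissues were nearly silent. COX4I2, COX6A2, COX7A1 and COX7B2 had 0 counts in every sample, which allows up to 0.101 to 0.198 CPM per sample, COX8C had at most 1 count, and COX6B2 had 17 to 29 counts.

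**Figure D4:**
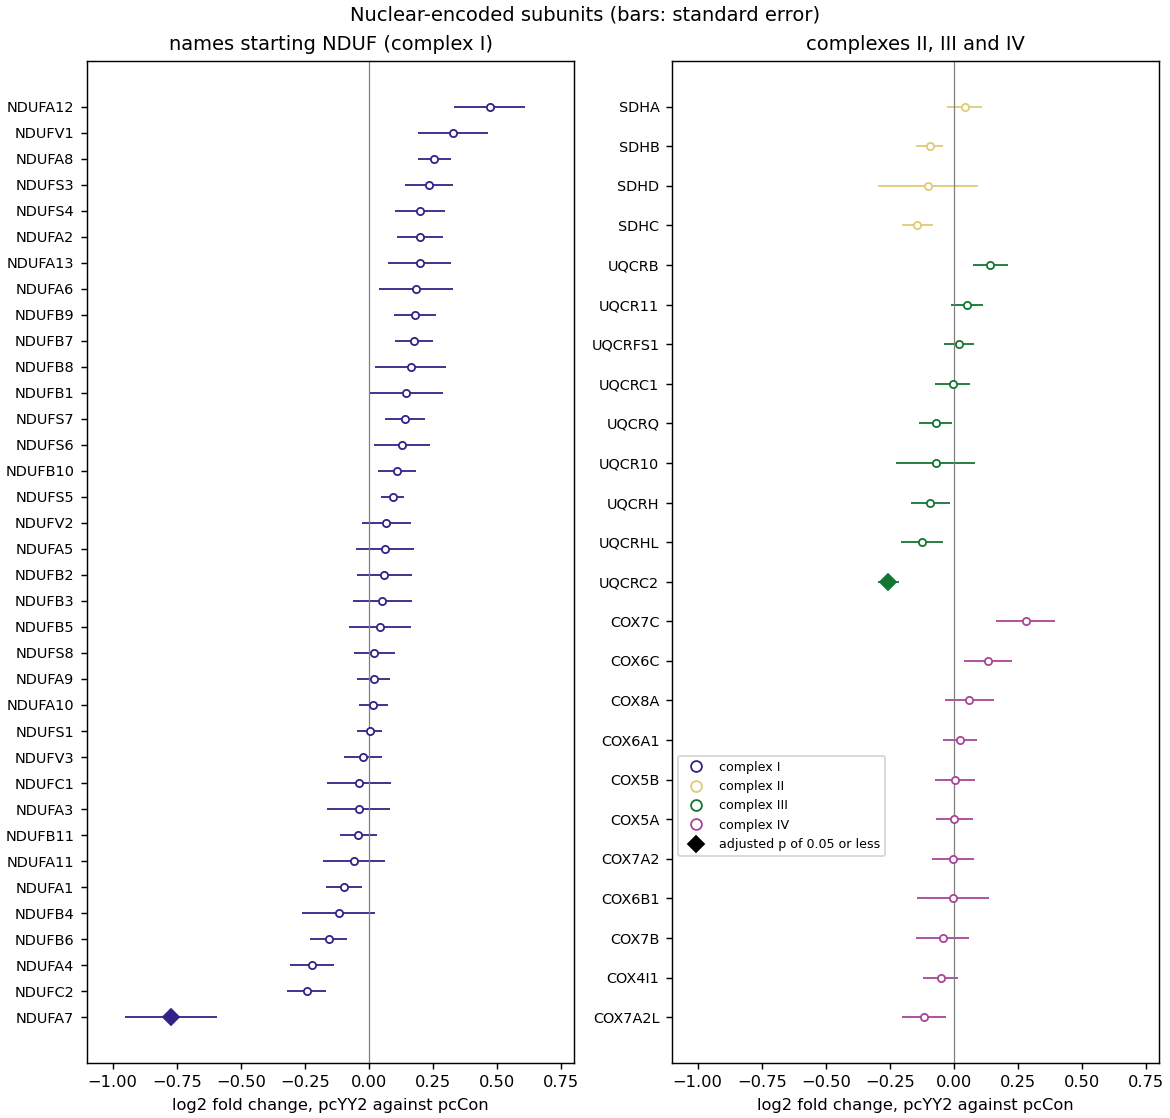
Log2 fold change of pcYY2 against pcCon (x axis) with its standard error for the tested nuclear subunits reported here, ordered by value within complex I (left) and complexes IV, III and II (right, from the bottom). Filled diamonds mark NDUFA7 (-0.77) and UQCRC2 (-0.26), the only 2 with an adjusted p of 0.05 or less.

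Of the 13 MT- messengers, the 4 whose groups did not overlap were 1 with higher and 3 with lower values, beside 15.9% and 19.9% of all tested genes. MT-CO1, the catalytic subunit of complex IV, was at 8324, 7880 and 7840 FPKM in pcCon and at 7088, 7442 and 6748 FPKM in pcYY2, with a log2 fold change of -0.16 ± 0.04 (SE, adjusted p by edgeR 0.0626). MT-ND4, a proton-pumping subunit of complex I, was at 6362, 5882 and 6141 FPKM in pcCon and at 5417, 5713 and 5290 FPKM in pcYY2 (log2 fold change -0.15 ± 0.04, adjusted p by edgeR 0.0712). In both genes all pcYY2 samples were below all pcCon samples. MT-ND1, which sits at the entry of the quinone channel, went the other way, at 2416, 2334 and 2424 FPKM in pcCon and 2605, 2807 and 2541 FPKM in pcYY2. Its log2 fold change was 0.16 ± 0.04 (SE, adjusted p by edgeR 0.0653) and its groups did not overlap. None of the 3 was called by the test used here, and they had means of 46680 (MT-ND1) to 222812 (MT-CO1) counts per sample. Other fits of edgeR to all samples called MT-ND1 (no filter), MT-CO1 (library totals only) or MT-CO1 and MT-ND4 (gene length offset). Without pcYY2 sample 2, MT-CO1 was called lower (-0.20, adjusted p by edgeR 0.0423).

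The other MT- genes showed smaller or less even differences. MT-ND4L, whose messenger is shared with MT-ND4, was at -0.14 ± 0.04 (SE, adjusted p by edgeR 0.0918), with groups that did not overlap. Without pcYY2 sample 2, MT-ND4L (-0.18, adjusted p by edgeR 0.0413) and MT-CYB (-0.12, adjusted p by edgeR 0.0477) were called lower. MT-ND6, the only member encoded on the other strand, had 972, 1110 and 1218 FPKM in pcCon and 1425, 1141 and 1301 FPKM in pcYY2, and its log2 fold change of 0.24 ± 0.10 had the widest error of the 13. MT-ND3 (0.15 ± 0.07), MT-CO2 (0.10 ± 0.05), MT-ND5 (0.09 ± 0.05), MT-ND2 (0.05 ± 0.04), MT-ATP6 (0.05 ± 0.05) and MT-CO3 (0.03 ± 0.04) were positive, and MT-CYB (-0.08 ± 0.04) and MT-ATP8 (-0.08 ± 0.06) negative. The groups overlapped in each of these 8 genes and in MT-ND6. Whether the counting used the strand is not given in the sources used here, so reads of MT-ND6 and of the messengers opposite to it may not have been told apart.

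Set against the total of the 13 messengers, the make-up of the mitochondrial pool differed by up to a few percentage points. This is a description with no test, since the shares of a sample add up to a fixed total. MT-CO1 made up 23.4%, 23.2% and 22.7% of the MT- counts in pcCon and 21.3%, 21.3% and 20.8% in pcYY2. MT-ND4 made up 16.0%, 15.5% and 15.9% in pcCon and 14.6%, 14.6% and 14.6% in pcYY2. The 2 most counted messengers thus took a smaller part of the pool in every pcYY2 sample. MT-CO2 made up 11.8%, 11.7% and 11.6% in pcCon and 12.4%, 13.2% and 12.9% in pcYY2, and MT-ND1 4.22%, 4.26% and 4.35% in pcCon and 4.86%, 4.98% and 4.86% in pcYY2. Both took a larger part of the pool in every pcYY2 sample, as did MT-ND2, MT-ND3, MT-ND5, MT-CO3 and MT-ATP6. MT-ND4L and MT-CYB took a smaller part in every pcYY2 sample, and only the shares of MT-ND6 and MT-ATP8 overlapped between the groups. A lower share of the most counted messengers by itself raises the shares of the rest. On FPKM, which is scaled to the whole library, only 1 MT- gene with higher and 3 with lower values did not overlap. The background over all tested genes was 15.9% and 19.9%.

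Per length, the 13 messengers spanned 1195 to 10552 FPKM as means over the 6 samples. MT-ATP8 had the highest mean (10883 ± 235 FPKM in pcCon and 10220 ± 804 FPKM in pcYY2, SD), although in pcYY2 sample 2 it lay below MT-CO2 and MT-CO3. It was followed by MT-CO2 and MT-CO3, whose means of 9417 and 9184 FPKM lay within the spread between samples, then MT-ND4L, MT-CO1, MT-ND4, MT-ND2, MT-CYB, MT-ND1, MT-ND3, MT-ATP6, MT-ND5 and MT-ND6. MT-ATP6 (1775 ± 15.3 FPKM in pcCon, SD) was far below MT-ATP8, although both proteins of ATP synthase are read from the same messenger. A nuclear copy, MTATP6P1, was at 1245 to 1457 FPKM over the 6 samples, and the nuclear copies of MT- genes together held 1354 to 1511 CPM. Their part in the low level of MT-ATP6 was not tested. The 2 genes also overlap on the chromosome, as do MT-ND4L and MT-ND4. The sequences below (hg38, plus strand, shared bases in capitals) show these overlaps, within which a read belongs to both genes.
MT-ATP8 and MT-ATP6, chrM:8515-8584: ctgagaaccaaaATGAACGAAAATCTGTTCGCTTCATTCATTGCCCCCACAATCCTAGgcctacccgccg
MT-ND4L and MT-ND4, chrM:10748-10778: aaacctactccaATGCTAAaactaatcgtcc

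The overlaps span 46 and 7 bases. Adding the counts of MT-ATP8 and MT-ATP6 gave a log2 fold change of -0.03 ± 0.03 (SE, adjusted p by edgeR 0.501). Adding those of MT-ND4L and MT-ND4 gave -0.15 ± 0.04 (SE, adjusted p by edgeR 0.0677). Neither sum was called.

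The 2 ribosomal RNAs of the mitochondrial genome, which lie just before MT-ND1 on the same strand, were both called higher. MT-RNR1, the RNA of the small mitochondrial ribosomal subunit, was at 2968, 2791 and 2821 FPKM in pcCon and at 4025, 4158 and 3922 FPKM in pcYY2. It rose by a log2 fold change of 0.51 ± 0.04 (SE, adjusted p by edgeR 0.0017). MT-RNR2, the RNA of the large subunit, was at 6282, 6165 and 6008 FPKM in pcCon and at 7477, 7033 and 7016 FPKM in pcYY2, and rose by 0.24 ± 0.03 (SE, adjusted p by edgeR 0.00999). MT-RNR1 was called with any 1 sample left out, and MT-RNR2 missed the threshold only without pcCon sample 3 (0.22, adjusted p by edgeR 0.0532). In both, all pcYY2 samples stood above all pcCon samples, and together they held 1.23% ± 0.0286 of the counts (SD, n = 3) in pcCon and 1.504% ± 0.0418 in pcYY2. The authors filtered out rRNA reads before mapping and polyadenylated RNA was sequenced, so these values are what remained after both steps. The part of those steps in the difference was not tested.

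**Figure D5:**
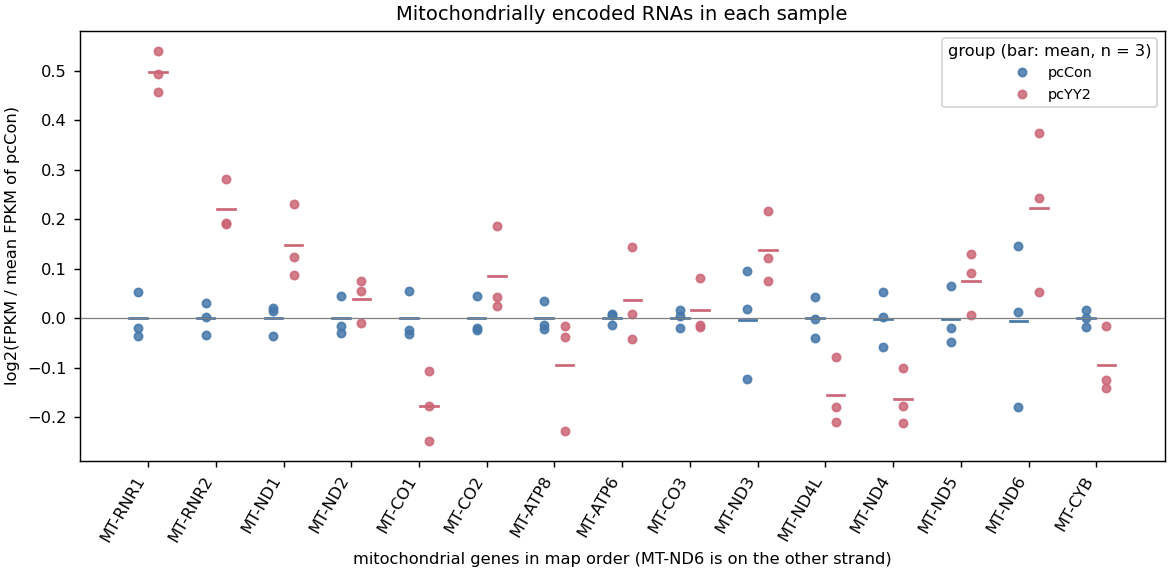
log2 of the FPKM of each sample divided by the mean FPKM of pcCon (y axis) for the 2 ribosomal RNAs and the 13 messengers of the mitochondrial genome in map order (x axis), with a bar at the mean of the 3 samples of each group. MT-RNR1 and MT-RNR2 lie well above 0 in pcYY2, MT-ND1 lies above and MT-CO1, MT-ND4L and MT-ND4 below the pcCon samples without overlap, and the rest overlap.

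Genes that act with the chain were counted from fixed lists in the same fit. Of 28 tested genes for the upkeep, transcription and processing of mitochondrial DNA and RNA, 1 was called higher and 3 lower, beside 4.52% and 4.85% of all tested genes. FASTKD2, which is needed for the large mitochondrial ribosomal RNA, rose from 6.67, 7.07 and 7.34 to 8.65, 8.23 and 9.08 FPKM (log2 fold change 0.31 ± 0.06, adjusted p by edgeR 0.0293). FASTKD3, of the same family of RNA-binding proteins, fell by 0.51 on the log2 scale, from 2.41, 2.42 and 2.41 to 1.51, 1.84 and 1.67 FPKM (adjusted p by edgeR 0.0288). LRPPRC, which stabilizes mitochondrial messengers, fell by 0.17 from 39.9, 41.1 and 39.7 to 35.9, 35.0 and 35.1 FPKM (adjusted p by edgeR 0.0296), and GRSF1, a protein of mitochondrial RNA granules, fell by 0.33 from 13.96, 16.9 and 16.3 to 12.8, 11.9 and 12.5 FPKM (adjusted p by edgeR 0.0460). The groups of these 4 genes did not overlap, but the calls depended on single samples. FASTKD2 and FASTKD3 were called only without pcYY2 sample 2, LRPPRC only without pcYY2 sample 1 and GRSF1 only without pcCon sample 1 when samples were left out 1 at a time, and the highest adjusted p by edgeR was 0.0936, 0.0922, 0.113 and 0.130 in that order. TFAM (-0.08 ± 0.12) and POLRMT (0.06 ± 0.06), the packaging factor and the RNA polymerase of mitochondrial DNA, were not called.

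The assembly factors and ATP synthase held 1 call in all. The counts at an unadjusted p in the lists that follow stand beside 14.4% of all tested genes higher and 14.5% lower. Of 20 tested complex IV assembly factors, 1 was called higher, COX16, at 7.58, 7.75 and 7.69 FPKM in pcCon and 10.4, 9.27 and 9.10 FPKM in pcYY2 (log2 fold change 0.34 ± 0.08, adjusted p by edgeR 0.0481). It was not called with any 1 sample left out (adjusted p by edgeR 0.0846 to 0.131). The 14 factors for complex I, 4 for complex II and 6 for complex III had 0 calls in edgeR, with 3 higher and 3 lower, 0 higher and 1 lower, and 1 higher and 0 lower at an unadjusted p under 0.05. The 18 nuclear ATP synthase genes had 0 calls in edgeR, 2 higher and 0 lower at an unadjusted p under 0.05, and a median log2 fold change of 0.04. CYC1, CYCS and NDUFAB1 were at 0.02, 0.11 and 0.11 and were not called. Of 10 tested regulators of these genes, YY2 was the only one called, and YY1 (0.17 ± 0.09), NRF1 (0.19 ± 0.10) and GABPA (-0.02 ± 0.10) were not, while the coactivator PPARGC1A was at 0 counts. The 77 tested proteins of the mitochondrial ribosome had 0 calls in edgeR, with 11 higher and 3 lower at an unadjusted p under 0.05 and a median of 0.08. Of 77 tested proteins of the cytosolic ribosome, 0 were called higher and 3 lower, RPL26, RPL23 and RPL12, with a median of 0.01. With 1 sample left out, their adjusted p by edgeR reached 0.118, 0.0798 and 0.107.

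The FPKM of a nuclear subunit depends on the gene length used, which was a median of 3741 bases for the 61 tested subunits (507 to 18854) and 7262 bases for all tested genes, so FPKM was compared between genes only with those lengths. COX8A and NDUFS5 had the highest FPKM of the nuclear subunits, with means of 276 and 253, and NDUFS7 the lowest, at 2.098. The lengths were worked out from the counts and FPKM. That of NDUFS7, 18854 bases, is longer than its locus (chr19:1383527-1395589). By mean counts NDUFS7 (769) lay above NDUFA7 (270.5), and COX8A (2726) lay below UQCRC1 (4130). This is therefore an order of FPKM and not of RNA amount. Over the 12015 tested genes in 5 classes of length, the median log2 fold change was 0.02 in the shortest and -0.01 in the longest. The share of genes called also differed, with 3.29% higher and 2.12% lower in the shortest and 3.87% and 6.33% in the longest. All MT- genes fall in the shortest class. The median length of the nuclear subunits falls in class 2 (3109 to 5901 bases), with 5.45% called higher and 4.66% lower. Of the 62 tested nuclear rows, 23 overlapped another row with a mean of at least 10 counts, 11 of them on the same strand, and their values carry the limit described for NDUFA7.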

How the data were processed

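According to the methods, the authors removed rRNA and low-quality reads, mapped to GRCh38 with TopHat and obtained FPKM with Cufflinks. The deposited table holds counts per gene, as whole numbers without normalization. The length of each gene was worked out from its counts and FPKM. With 1 such length per gene, the deposited FPKM equalled count per length and library total to within 0.00286%. This shows that the same length was used in all samples and does not check it against an annotation. The submitters' processing notes name HTSeq, Bowtie2 and TopHat, and neither the counting settings nor the use of strand are given in the sources used here. Genes whose FPKM averaged 1 or more across all 6 samples entered the test with edgeR 4.0.16 (R 4.3.3, TMM, quasi-likelihood, no replicate block), adjusted by Benjamini-Hochberg over all 12015 genes at 0.05. Each SE was the log2 fold change over the root of its F value. The tests were tried on simulated data. Members, lists and motifs were chosen with earlier results of these data known, so no set was tested. Genes named were all MT- genes, called members, the 3 smallest p per complex, listed core, catalytic and tissue-specific subunits, antisense, readthrough and retrocopy rows, and at most 5 called genes per other list. NDUFC2, UQCRH, NDUFS5, COX8A and genes named to explain a count, site or list were added after their values were seen, as was the sum of NDUFA7 with its overlapping row CTD-2550O8.5. Alternatives were lower or no filters, 4 other scalings, limma 3.58.1 on log2(FPKM + 1) or with 0.1, DESeq2 1.42.0, a robust fit, the replicate block, other thresholds and leaving out each sample. GENCODE 44 gave strands. Tables and plots used Python 3.11.15, pandas 2.3.3, scipy 1.17.1 and matplotlib 3.10.9. A gene that was tested is counted in the totals but not reported here.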

Additional observations from a re-analysis of the deposited data

How the results depend on the processing

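Over all genes, 543 were called higher and 583 lower, 713 and 726 by DESeq2, and 138 to 412 and 147 to 393 when 1 sample was left out. Same-numbered samples of the groups did not deviate together (correlations from -0.0318 to -0.0175, beside -0.0310 to 0.0569 for other pairs), so the numbers were not taken as a pairing. With the replicate block, 51 genes were called higher and 50 lower, and 0 nuclear subunits, also with a gene length offset (56 and 55 genes).

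The 2 nuclear subunits called lower became 1 with a mean FPKM of at least 0.1 as the filter, 0 at an adjusted p of 0.01, and 0 to 2 when 1 sample was left out. UQCRC2 was past the threshold in 12 of 18 alternatives (log2 fold change -0.27 to -0.23) and NDUFA7 in 10 (-0.99 to -0.64). Nuclear subunits called higher numbered 1 with DESeq2 (NDUFA12), 1 with limma at either pseudocount (NDUFA8 at 1), 2 at an adjusted p of 0.1, and 0 to 1 when 1 sample was left out. Among MT- genes, 1 was called higher without a filter (MT-ND1) and 1 at an adjusted p of 0.1. MT- genes called lower numbered 1 with library totals only (MT-CO1), 2 with a gene length offset (MT-CO1 and MT-ND4), 3 at an adjusted p of 0.1, and 0 to 3 when 1 sample was left out, with 3 (MT-CO1, MT-CYB and MT-ND4L) without pcYY2 sample 2. The median of the MT- genes ranged from -0.0052 (without pcYY2 sample 2) to 0.0820 (without pcYY2 sample 3) when 1 sample was left out, and that of the nuclear subunits from -0.02 to 0.05. MT-RNR1 was called in 18 and MT-RNR2 in 16 of 18 alternatives, FASTKD2 and FASTKD3 in 11, LRPPRC in 9, GRSF1 in 7 and COX16 in 4. The cause of these changes was not tested. Some of the alternatives left fewer samples, and others tested more genes. Lowering the FPKM filter to 0.1 brought 18877 genes into the test and dropping it 27528, beside 12015 in the main fit. With 3 samples a group, a median SE of 0.08 limits what can be seen in a nuclear subunit.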
